A study of Homo sapiens with 12 samples.

Results

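CHST8 was examined under the Ensembl identifier ENSG00000124302, the only name the deposited files give it, as 1 of 18569 gene IDs in a map of internal N7-methylguanosine (m7G) in mRNA. It was represented by 34 of 842183 positions. No table used here pairs the identifier with the symbol, which was taken as given. The gene was chosen on its AlkAniline-Seq reads, which were lower after METTL1 knockdown, so every value of that contrast below is a description and carries no test. The input libraries had no part in the choice, and the test of CHST8 was made on them.

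The cells were LNCaP-AI, a castration-resistant prostate cancer line derived from LNCaP and kept under androgen deprivation, a condition shared by both groups. The shMETTL1 group carried a stably integrated hairpin against METTL1, for which the study lists 1 sequence, and the shscramble group carried a scrambled hairpin. Each group had 3 AlkAniline-Seq libraries and 3 input libraries, 12 in all. The study states that its data came from biological replicates, and the labels do not say whether the replicates were separate cultures, so the tests measure only the spread between these libraries.

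METTL1, working with its partner WDR4, methylates guanosine at the N7 position in tRNA and inside some mRNAs. AlkAniline-Seq turns this mark into a cut: alkaline hydrolysis and aniline cleave the RNA at m7G, an adapter is ligated to the new end, and reads then begin at a single position. CHST8 encodes a sulfotransferase of the Golgi apparatus, GalNAc-4-O-sulfotransferase, which adds sulfate to terminal N-acetylgalactosamine on N-glycans. It is best known from the pituitary, where this sulfate on glycoprotein hormones such as lutropin sets how fast the liver removes them from blood.

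The hairpin that defines the shMETTL1 group is shown because it is the sequence that sets the groups apart. Its arms, found as exact reverse complements of each other in the study's oligonucleotide list, are 21 bases long, and capitals mark the paired bases.
shMETTL1 sense arm: GGAATGTAGTCCATCTAAACT
shMETTL1 antisense arm: AGTTTAGATGGACTACATTCC

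Reads at positions summed to 2512434, 2764417 and 2474464 in the shMETTL1 AlkAniline-Seq libraries, against 1730427, 2624431 and 1421551 in the shscramble ones. The input libraries held between 2783709 and 3258499 reads. They had a read at 311979, 153839 and 165105 positions in shMETTL1, against 158448, 72098 and 154432 in shscramble. Among the AlkAniline-Seq libraries 1 stood apart. Where shscramble replicate 2 had at least 50 reads (16371 positions), shscramble replicate 1 also had a read at 99.9% of them, and it had one at every such position of shscramble replicate 3 (8624 of 8624). Between the other pairs of AlkAniline-Seq libraries this share ran from 31.1% to 63.4%. The same comparison was not made between input libraries. The main values of CHST8 that include shscramble replicate 1 are therefore also given without it. The level of METTL1 and the markers of prostate cells were not looked up, because the reference table used here pairs no Ensembl identifier with a symbol.

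Nearly all CHST8 reads began at 1 position, called the leading position here. Over the 6 AlkAniline-Seq libraries it took 2490 of 2599 CHST8 reads (95.8%, and 95.7% without shscramble replicate 1), and over the 6 input libraries 166 of 195. Among the AlkAniline-Seq libraries its share was lowest in shMETTL1 replicate 2, at 81.4% (95% Wilson interval 72.6% to 87.9%), and highest in shscramble replicate 2, at 98.8% (97.8% to 99.3%). These intervals cover counting error only, since reads without molecular identifiers are not independent molecules. Among the 2006 gene IDs with 0.5 to 2 times as many AlkAniline-Seq reads as CHST8, CHST8 included, the highest position held a median of 14.5% of the reads and 4 gene IDs had a higher share than CHST8. CHST8 had reads at 17 positions in AlkAniline-Seq, against a median of 55 for those gene IDs. In the input the share was 86.5%, 66.7% and 93.3% in shMETTL1, against 81.6% and 88.2% in shscramble replicates 1 and 3 and 3 of 6 reads in shscramble replicate 2. The lowest values were those of replicate 2 in both groups, where CHST8 had 9 reads in shMETTL1 and 6 in shscramble.

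**Figure D1:**
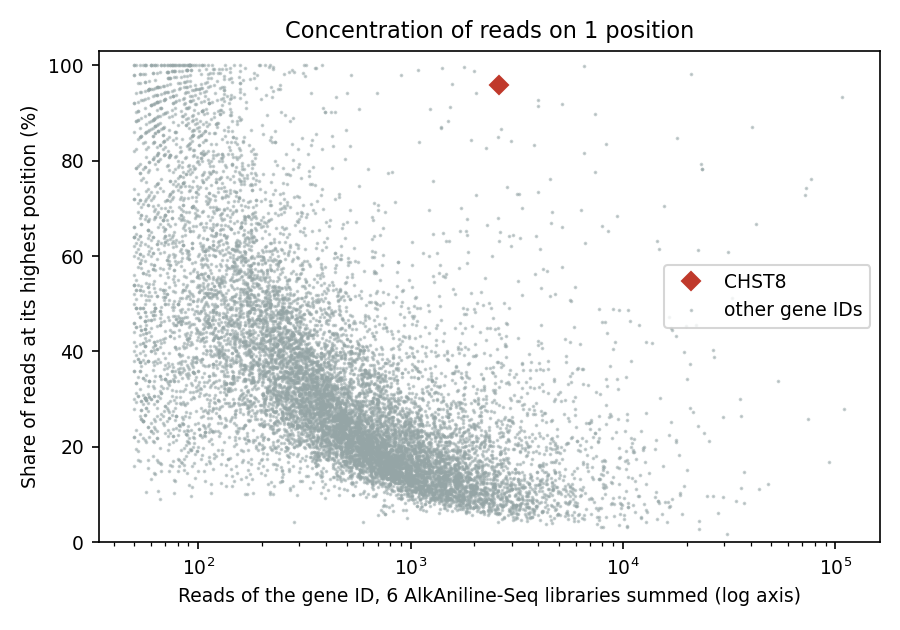
Share of a gene ID's AlkAniline-Seq reads that fall on its highest position (vertical axis, percent) against its reads summed over the 6 libraries (horizontal axis, log scale), for gene IDs with 50 or more reads. CHST8, the red diamond, lies at 2599 reads and 95.8%, above nearly all gene IDs of similar depth.

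At the leading position the shMETTL1 AlkAniline-Seq libraries had 73, 79 and 151 reads, against 390, 950 and 847 in the shscramble libraries. Every shMETTL1 library was below every shscramble library. In CPM, the reads scaled to the same total over all positions in each library, the levels were 29.1, 28.6 and 61.0 in shMETTL1, against 225, 362 and 596 in shscramble. The means were 39.6 ± 18.6 in shMETTL1 and 394 ± 187 in shscramble (SD, n = 3 each), a ratio of shscramble to shMETTL1 of 9.97. Without shscramble replicate 1 the ratio was 12.1. The same lack of overlap, with shMETTL1 lower, was found at 11.2% of the 13973 positions that passed a filter on low counts, and at 13.1% of them without that library. The leading position stood at ranks 8227, 14780 and 1996 by reads among the positions of the shMETTL1 libraries, and at ranks 154, 85 and 50 in the shscramble libraries.

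Summed over the gene, CHST8 had 76, 97 and 157 AlkAniline-Seq reads in the shMETTL1 libraries, against 404, 962 and 903 in the shscramble libraries. This came to 42.9 ± 17.9 CPM in shMETTL1 and 412 ± 205 CPM in shscramble (SD, n = 3 each). Among gene IDs CHST8 ranked 6423rd, 6154th and 3823rd by reads in the shMETTL1 libraries, and 769th, 382nd and 167th in the shscramble libraries. The fold change fitted by edgeR was -3.17 on the log2 scale (standard error 0.51). It stood 248th from the lowest of 11097 gene IDs, whose median was 0.07. Taken by position, the leading position was less far out, 1377th from the lowest of 13973 positions by its own fitted fold change. Every shMETTL1 library was below every shscramble library for 7.38% of the gene IDs, and for 10.4% without shscramble replicate 1. As background, edgeR called 1 gene ID lower after Benjamini-Hochberg adjustment (0.00901%). CHST8 lay outside that threshold here and inside it under 5 of the 13 alternatives tried, and neither is read as a result, since this contrast chose the gene.

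Without shscramble replicate 1 the log2 fold change was -3.47, and leaving out any other library gave values from -3.54 to -2.66. The weakest of these was obtained without shscramble replicate 3, which had the highest level of the 6.

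**Figure D2:**
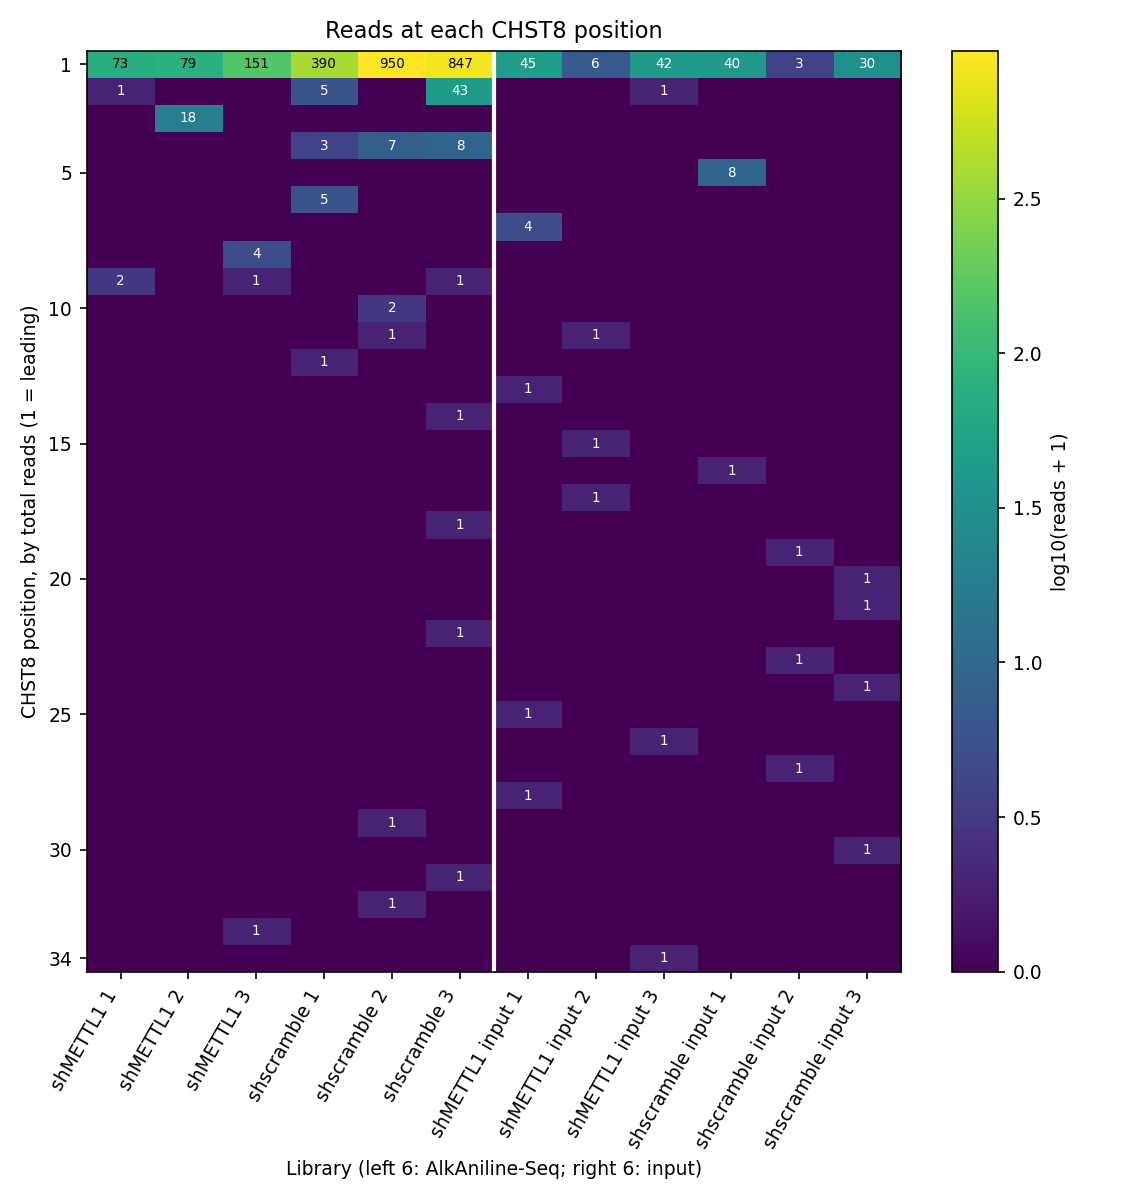
Reads at each of the 34 CHST8 positions (vertical axis, ordered by total reads) in each of the 12 libraries (horizontal axis, AlkAniline-Seq left of the white line and input right of it). Colour is log10 of reads plus 1 and the numbers are reads. The leading position in the top row is the only one with a read in all 12 libraries, from 3 reads in shscramble input replicate 2 to 950 in shscramble replicate 2.

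The leading position was also read without the chemistry. In the input libraries it had 45, 6 and 42 reads in shMETTL1, against 40, 3 and 30 in shscramble, and the groups overlapped. Replicate 2 was low in both groups. The means were 10.3 ± 7.29 CPM in shMETTL1 and 7.84 ± 6.11 CPM in shscramble (SD, n = 3 each), and an exact two-sided permutation test gave p = 0.5, where 3 against 3 allow no p below 0.1.

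Over the whole gene, the input libraries had 52, 9 and 45 reads in shMETTL1, against 49, 6 and 34 in shscramble. The fitted log2 fold change was 0.09 (standard error 1.25, adjusted p = 0.996 from edgeR), with a 95% interval from -2.55 to 2.72. In a bulk input library, fewer cells with CHST8 RNA and less CHST8 RNA per cell cannot be told apart. These sums count only reads that start at the listed positions, 166 of 195 of them at the leading position. They are therefore close to the leading position's own result and do not measure the whole transcript. No fall of CHST8 reads was detected in the input, but at this depth the interval spans changes of several-fold in either direction. Of all 11740 gene IDs in the input, edgeR called 0 (0%) and DESeq2 called 35. Before adjustment 735 had p under 0.05 in edgeR, where a share of about 0.05 would be under it with no change. At the leading position the input log2 fold change was 0.40 (standard error 1.73). Of 20840 input positions edgeR called 0 (0%) and DESeq2 called 97. Before adjustment 1169 had p under 0.05 in edgeR, where the same share would be under it with no change.

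**Figure D3:**
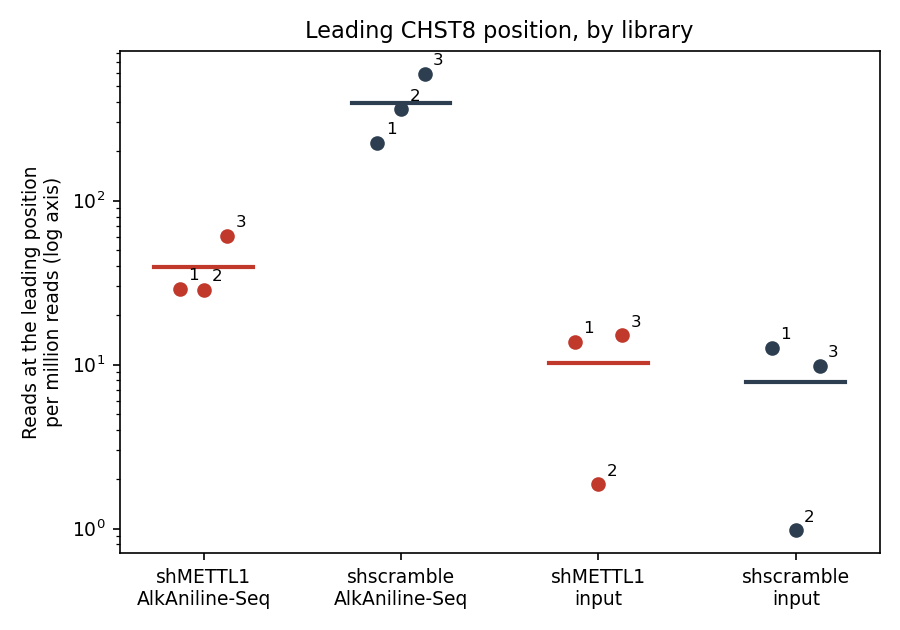
Reads at the leading CHST8 position in CPM (vertical axis, log scale), with points for the 3 replicates of each group, numbered, and bars for the means. The AlkAniline-Seq means are 39.6 in shMETTL1 and 394 in shscramble, and the input means are 10.3 in shMETTL1 and 7.84 in shscramble.

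Set against its own input, the AlkAniline-Seq level of the leading position was higher in all 6 replicates. The ratio of both levels in CPM was 2.10, 15.3 and 4.04 in shMETTL1, against 17.8, 371 and 60.5 in shscramble. The shscramble ratio of 371 was measured over 3 input reads and had an exact 95% counting interval from 127 to 1804. For shMETTL1 replicate 2, with 6 input reads, the interval ran from 6.72 to 42.9. Over the gene, the log2 fold change over the input, an interaction fitted on all 12 libraries, was -3.13 (standard error 0.99), beside a value of -3.17 without the input. It stood 820th from the lowest of 12877 gene IDs. Without shscramble replicate 1 and the input library of the same replicate, which were left out together, it was -4.01.

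The fraction of covering reads that start at a position, on which the deposited fold over input is built, did not carry this difference. At the leading position the fraction was 1 in all 3 shMETTL1 libraries and 0.992, 0.993 and 0.991 in the shscramble libraries. In all 6 input libraries it was 1. The deposited fold was therefore 1 in each shMETTL1 library and between 0.991 and 0.993 in the shscramble libraries, where the mean levels in CPM differed by a ratio of 9.97. Positions of this kind were uncommon. Of 5336 positions read in all 12 libraries, 138 (2.59%) had a fraction of at least 0.95 in every library. Over these 138 the log2 ratio of the group means in AlkAniline-Seq, shMETTL1 over shscramble, had a median of -0.36, against -3.32 at CHST8, and 5 of them were lower than CHST8. Without shscramble replicate 1 there were 144 such positions in the other 11 libraries, with a median of -0.51, against -3.60 at CHST8, and 5 were lower.

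Over the gene, the summed count as a percent of summed coverage was 96.2%, 97.0% and 98.1% in shMETTL1 AlkAniline-Seq libraries, against 97.1%, 98.7% and 99.1% in shscramble ones. The groups overlapped. In the input it was 97.9 ± 3.61% in shMETTL1 and 93.4 ± 7.20% in shscramble (SD, n = 3 each; exact two-sided permutation test, p = 0.7).

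The other positions held few reads. The second most read had 1, 0 and 0 reads in the shMETTL1 AlkAniline-Seq libraries, against 5, 0 and 43 in the shscramble libraries, so shscramble replicate 3 held most of them. In the input it had 1 read, in shMETTL1 replicate 3. The third had 18 reads in shMETTL1 replicate 2 and 0 in the other 11 libraries, the shMETTL1 input and both shscramble assays included.

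The fourth position was read in every shscramble AlkAniline-Seq library and in no other library. It had 0 reads in each shMETTL1 library, against 3, 7 and 8 in the shscramble libraries. With 0 of 7751315 reads in shMETTL1, the floor over the group, taken as 3 counts, was 0.387 CPM. The level over the shscramble group, 3.12 CPM, was 8.05-fold above this floor (9.58-fold without shscramble replicate 1). This ratio leaves out the counting error of the shscramble reads and the spread between libraries, so it is not a lower bound. At the leading position, the covering reads that did not start there numbered 0, 0 and 0 in shMETTL1 and 3, 7 and 8 in shscramble, the same as the reads starting at the fourth position in all 6 libraries. The deposited fold at the fourth position was 0 in every shMETTL1 library and 2 in every shscramble library, the value given where all covering reads start at a position and the input fraction is 0. This pair of values occurred at 0.0893% of all 842183 positions, of which a given AlkAniline-Seq library read only 86641 to 166443. Its share among positions read in every shscramble library, and its share without shscramble replicate 1, were not computed.

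The other 30 positions had at most 8 reads in any library, and 23 of the 34 had a single read in total. A read was found in exactly 1 of the 12 libraries at 29 positions. AlkAniline-Seq reads fell on 3 positions in shMETTL1 only, on 11 in shscramble only and on 3 in both. Input reads fell on 10 in shMETTL1 only, on 9 in shscramble only and on 1, the leading position, in both. Positions read per AlkAniline-Seq library numbered 3, 2 and 4 in shMETTL1, against 5, 6 and 8 in shscramble. In the input they numbered 5, 4 and 4 in shMETTL1, against 3, 4 and 5 in shscramble. Over all gene IDs, positions with a read in AlkAniline-Seq numbered 114828, 88115 and 97954 in shMETTL1, against 166443, 116013 and 86641 in shscramble. The share of gene IDs whose numbers of positions likewise did not overlap was not computed, so these numbers are not read as a result.

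Away from the leading position, CHST8 had 3, 18 and 6 AlkAniline-Seq reads in shMETTL1, against 14, 12 and 56 in shscramble, and the groups overlapped. Refitted without the leading position, the log2 fold change was -2.21 (standard error 1.46). In the input these reads numbered 7, 3 and 3 in shMETTL1 and 9, 3 and 4 in shscramble, too few to pass the filter.

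**Figure D4:**
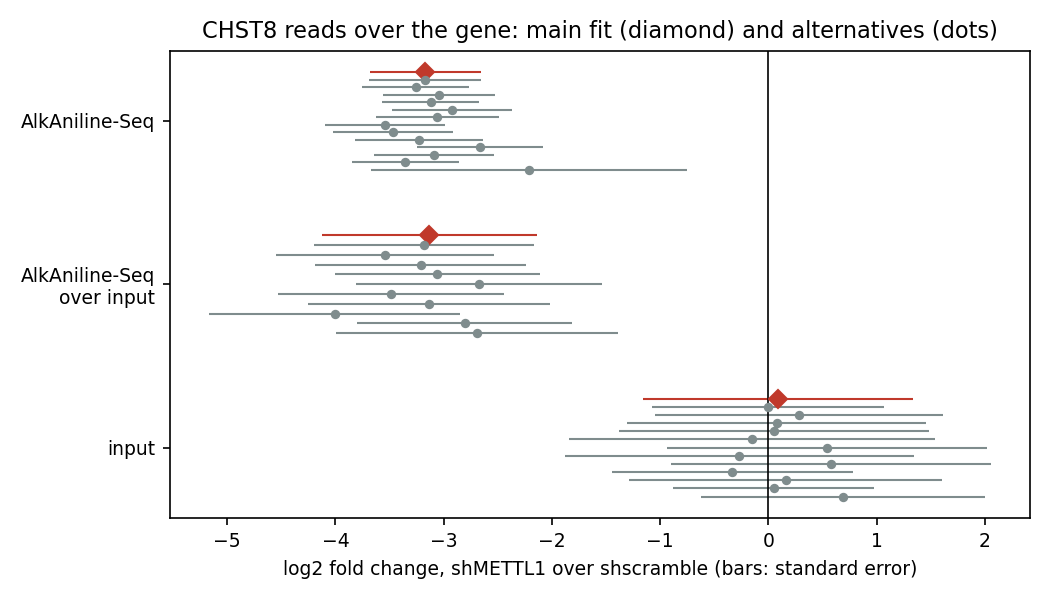
Log2 fold change of CHST8 reads over the gene, shMETTL1 over shscramble (horizontal axis), in AlkAniline-Seq, in AlkAniline-Seq over the input and in the input (vertical axis). Red diamonds are the main values (-3.17, -3.13 and 0.09), grey dots the alternatives of processing or with 1 library left out, and bars standard errors. Over the input, the AlkAniline-Seq and input libraries of a replicate were left out together. The AlkAniline-Seq values lie below 0 under every alternative plotted, and the input values lie on both sides of 0.

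The gene IDs whose pattern over the 6 AlkAniline-Seq libraries was most like that of CHST8 were sought by Pearson's r of log2 levels among 11096 others, as a description over 6 points that share 2 groups. The closest was ENSG00000148225 (r = 0.996), with 0, 1 and 2 reads in shMETTL1 and 25, 86 and 92 in shscramble. The next was ENSG00000165966 (r = 0.991), with 8, 12 and 20 reads in shMETTL1 and 36, 60 and 59 in shscramble. Without shscramble replicate 1 the correlations were 0.997 and 0.991. The sources used here give neither of them a symbol. In the input the first had 51, 38 and 29 reads in shMETTL1, against 50, 462 and 63 in shscramble. The second had 20, 63 and 36 in shMETTL1, against 6, 8 and 42 in shscramble.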

How the data were processed

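The authors deposited, per library pair and position, counts of reads, coverage (signal: the reads covering the position), the fraction of count over coverage, and a ratio, the fold of the AlkAniline-Seq fraction over the input fraction (the fraction plus 1 where only the input fraction was 0, and 0 where both were). The fraction equalled count over coverage at all 842183 positions within a tolerance of 1e-06. For the build, hg19 is named in the submitters' processing notes, and for tools bedtools 2.24, Bowtie2 2.2.4 and cutadapt 1.9.1. Which annotation and filters were applied is not stated. Positions carry no coordinate and were matched between files by row. Each row holds the same gene ID in all 6 files, and that it is also the same position was taken as given. No deposited per-sample column was left without a sample.

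Counts per position, and summed per gene ID, were compared by the quasi-likelihood test of edgeR 4.0.16 (R 4.3.3, TMM scaling, minimum count 10, minimum total 15, Benjamini-Hochberg threshold 0.05, script tested on simulated data). DESeq2 1.42.0, library size alone, no filter, a replicate block, the methods' t-test on log2(CPM + 1), the highest position and leaving out each library were alternatives. Over the input, the AlkAniline-Seq and input libraries of a replicate were left out together. The refit without the leading position, and the values without shscramble replicate 1 other than the fitted ones, were chosen after seeing the data. CPM in the text use all reads at positions as the library size. Exact permutation tests used scipy 1.17.1. A standard error from edgeR is the size of the log2 fold change divided by the square root of F. DESeq2 gives its own, and that of the t-test comes from the pooled variance within groups.

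CHST8, its gene lists and the tests were chosen with earlier results of these data known. Positions with 10 or more reads in a library, and the 3 gene IDs most like CHST8 (at most 2 printed), were to be described, and the fourth position was singled out after its values were seen. Lists of other sulfotransferases, of sulfate supply genes and of cell type markers had been set by symbol. None of the 59792 genes in the reference carries an Ensembl ID, so these lists were not run.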

Additional observations from a re-analysis of the deposited data

How the results depend on the processing

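The log2 fold change of CHST8 in AlkAniline-Seq reads was below 0, the direction the gene was chosen for, under all 13 alternatives, at -3.54 to -2.66 when 1 library was left out, and moved beyond the replicate spread without the leading position (-2.21). Over the input it stayed below 0 under all 10 (-4.01 to -2.68 with 1 replicate left out, its AlkAniline-Seq and input libraries together). In the input it changed sign with DESeq2 (-0.0034) and when 1 library was left out (-0.34 to 0.58). It was below 0 without shMETTL1 input replicate 1 (-0.15), shMETTL1 input replicate 3 (-0.27) or shscramble input replicate 2 (-0.34). The difference in the AlkAniline-Seq count as a percent of coverage, shMETTL1 minus shscramble, was -1.19 percentage points, 0.795 at positions with a coverage of 10 or more, -25.4 as a mean over positions and -1.79 to -0.739 with 1 library left out. In the input it was 4.53. With 1 library left out it ran from 0.694 (without shscramble input replicate 2) to 7.84 (without shscramble input replicate 1). At a coverage of 10 or more only 4 input libraries had such a position, and both groups stood at 100% there, a difference of 0.

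Counts of calls over all features depended on the tool, and the cause was not tested. For input gene IDs they were 35 with DESeq2, 95 without a filter and 0 to 0 with 1 library left out, against 0. For AlkAniline-Seq gene IDs they were 178 with DESeq2, 2 with library size alone, 19 without a filter, 0 by the methods' t-test and for the highest position, and 0 to 3 with 1 library left out (3 without shscramble replicate 1 or 2), against 1. For input positions they were 97 with DESeq2 and 0 to 162 with 1 library left out, against 0. For AlkAniline-Seq positions they were 713 with DESeq2, 5 without a filter and 3 to 5644 (without shscramble replicate 3) with 1 library left out, against 0.

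Deviations of same-numbered samples from their group means correlated at -0.028 to 0.056, so the numbers were not taken as pairs. With the replicate block the calls were 2 input gene IDs, 3 AlkAniline-Seq gene IDs, 6 input positions and 6 AlkAniline-Seq positions, and CHST8 was at 0.05 in the input and -3.12 in AlkAniline-Seq. Whether CHST8 passed the threshold in the AlkAniline-Seq contrast varied by setting and is not read as a result, since that contrast chose the gene.

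CHST8 had 6 to 52 input reads per library.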
